A study of Mus musculus with 24 samples.

Results

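The 68 genes described here encode enzymes that process foreign and endogenous lipophilic compounds, measured in the inguinal fat of young mice before and after separation from the mother. They are the genes whose symbols belong to the cytochrome P450 families Cyp1 to Cyp4, the glutathione S-transferase classes alpha, mu, pi, theta, omega and kappa, the UDP-glucuronosyltransferases, the quinone reductases Nqo1 and Nqo2, the epoxide hydrolases Ephx1 and Ephx2, and the flavin monooxygenases. They make up 68 of the 16118 genes in the deposited table. The rule reads gene symbols and no measured value, but these families were picked for description with earlier results of these data known. Polyadenylated RNA of inguinal white adipose tissue, a subcutaneous depot, was sequenced in 24 mice, with 1 library per mouse and 4 mice in each of 6 groups. Males and females were taken at postnatal day 21 (p21), or at day 28 (p28) after standard weaning at p21 (SW) or after staying with the mother (DW, delayed weaning). The strain is not given in the sources used here, and the labels give separation from the mother and not what each animal ate. The labels do not say whether animals of a group were littermates, so p-values measure the spread between these animals only.

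Cytochrome P450s and flavin monooxygenases add oxygen to their substrates, and epoxide hydrolases and quinone reductases act on reactive products of such oxidation. Glutathione S-transferases and UDP-glucuronosyltransferases attach glutathione or a sugar acid, which makes a compound easier to excrete. The receptor AHR and the transcription factor NRF2 are known to raise many of these genes when ligands or reactive compounds are present, and several members also act on fatty acids, retinoids or steroids.

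Values are reads scaled by 1 factor for each library, as deposited, and 57600711 to 302145813 reads per library fell on listed genes. One read was worth 0.00358 to 0.0154 of a scaled read. Of the 68 members, 43 had a mean value of at least 1 over the 24 animals and 49 had a read in every animal. A filter on low reads (a minimum count of 10) left 65 for testing and removed Cyp2c55, Gsta2 and Ugt1a5, which are given here by name only. Differences are on the scale log2(value + 1) and were tested with limma across 16005 genes. A gene is called where its Benjamini-Hochberg adjusted p is under 0.05.

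Adipocyte markers such as Adipoq and Plin1 had a summed value of 15060 to 18300 in p21 males, 20650 to 27710 in SW males and 20150 to 24340 in DW males. Both p28 male groups thus lay above p21. Fabp4 made up most of these sums, at 9997 to 11960 in p21 and 11520 to 17460 in SW males, which overlap. Plin1 also overlapped, at 909 to 1268 in p21 and 1235 to 1455 in SW males. Of 10 adipocyte markers, Adipoq, Cfd and Cidec were called higher and Lep lower in SW than in p21 males. In females the sums of the 3 groups overlapped, from 18390 to 26030. The part of this marker shift in the male enzyme changes was not tested. The 5 hepatocyte markers in the table, of 8 listed, summed to 16.6 to 60.4, so defining liver transcripts were low beside enzymes that are best known from liver. Among them Alb, serum albumin, was called higher in DW than in SW females (34.9 to 59.6 against 15.7 to 32.5, difference 1.02, adjusted p = 0.00640). Other tissue moved with the groups. Skeletal muscle markers summed to 3.89 to 513 in p21 males, 407 to 5900 in SW males and 306 to 6356 in DW males, and 7 of 8 were called higher at p28 in males of either regime. In females these markers summed to 4.78 to 1495 at p21, 327 to 2990 in SW and 3.49 to 1770 in DW. None was called between female groups, and 4 of 8 had an unadjusted p under 0.05 for DW minus SW, beside 18.9% of all genes. Macrophage markers summed to 294 to 427 at p21 and 583 to 941 at p28, without overlap. Mammary epithelium markers summed to at most 48.1 in any male. In females they reached 46.7 to 177 at p21, 291 to 401 after SW and 111 to 243 after DW. In bulk tissue, fewer cells of a type and less RNA per cell cannot be told apart.

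Some libraries stood apart. Female 30 of the p21 group was the highest of its 4 animals for 25 of the 43 members with a mean value of at least 1, and female 81 of the SW group for 24 of them. Male 124 of the SW group was the lowest of its 4 animals for 23. Male 53 of the p21 group had a read in 14054 genes, where all other libraries had one in 15497 to 16066. Nqo1 had 5 reads in male 53 and 352 to 624 in the other p21 males. This library is 1 of the 4 behind every male comparison with p21. Females 82 and 83 of the DW group had lower adipocyte, endothelial, macrophage, mammary and Schwann cell marker scores than females 76 and 77. Single genes of the macrophage and adipocyte lists did not all move together. Over all genes, reads of 82 and 83 differed more from those of 76 and 77 than in any other pair within a group. The chi-square per degree of freedom was 587 to 779 for these pairs and at most 357 for all others.

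Compared per kilobase of exon, the enzymes differed in level by orders of magnitude. Cyp2e1, which oxidises ethanol, acetone and small solvents, had the highest mean over all animals at 255 scaled reads per kb. The next 5 were Gstm1 (96.7), Ephx2 (79.6), Gstm2 (56.0), Fmo1 (48.0) and Ephx1 (24.5), all on the same per-kb scale. Ephx2 encodes soluble epoxide hydrolase, which opens fatty acid epoxides, and Ephx1 the microsomal form. Cyp1a1 stood at 0.287 per kb and ranked 46th. Cyp2e1 alone accounted for 12.2% to 43.6% of the summed value of the members in a library.

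**Figure D1:**
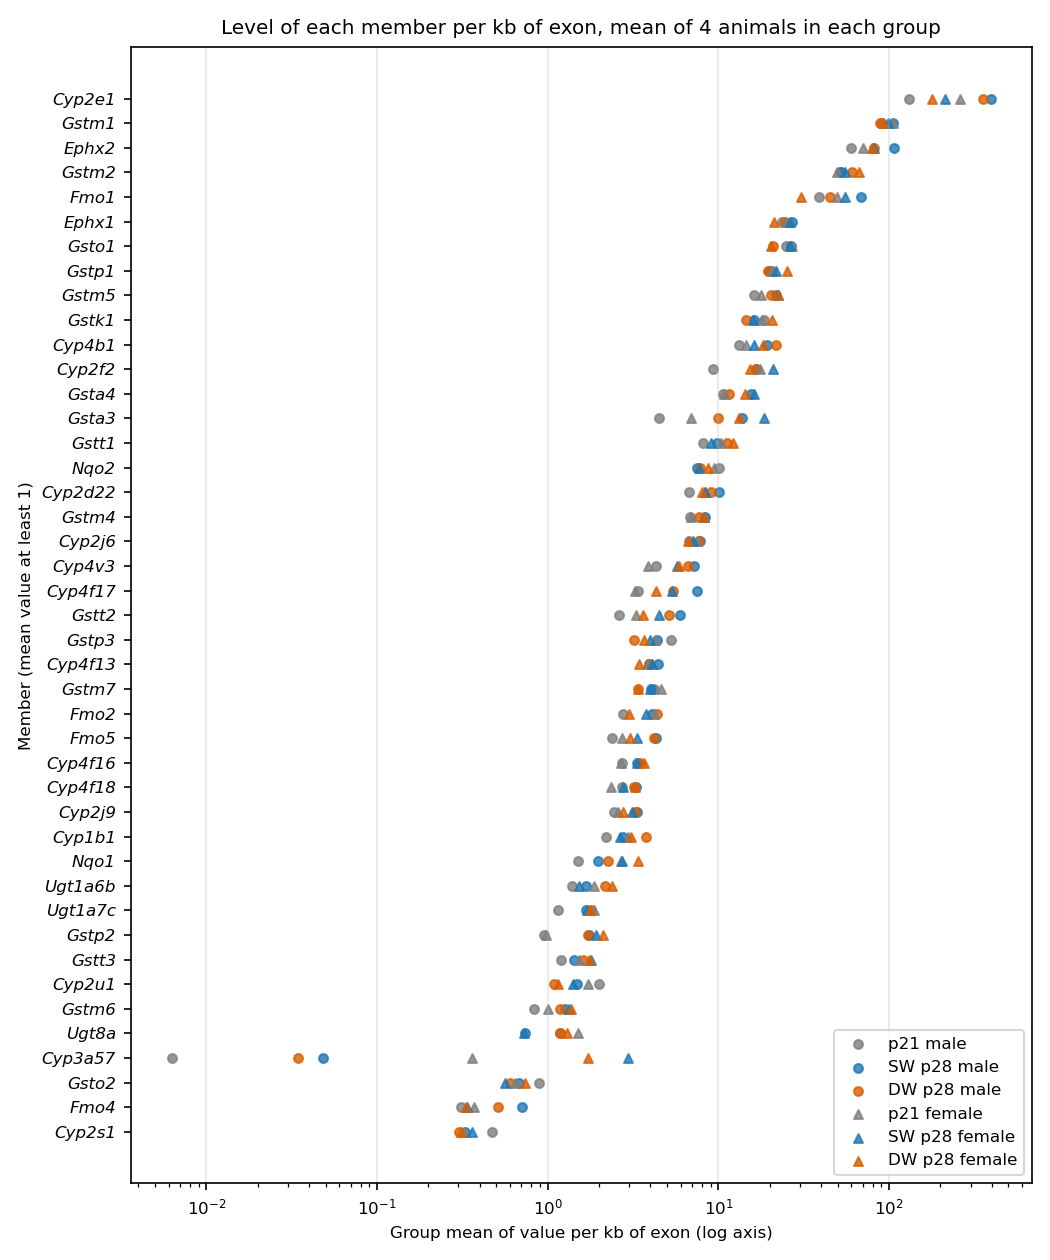
Level of the 43 members with a mean value of at least 1, as the mean of 4 animals in each group per kb of exon on a log axis. Cyp2e1 lies to the right of all others, and the group means of most members lie close together.

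The comparison of SW animals at p28 with p21 animals asks how the enzymes differ across the week in which the young leave the mother. In males 17 of 65 members were called, where 11.9% of all tested genes were. Of these, 16 were higher and 1 lower, where 6.90% and 4.97% of all genes were. In females 9 were called, where 11.6% of all genes were, 7 higher and 2 lower, beside 7.39% and 4.23% of all genes. As the mean of both sexes 22 were called, where 25.8% of all genes were. The median difference in log2(value + 1) over the 65 members was 0.19 in males and 0.04 in females, beside 0.01 over all genes in each sex. Cyp4f17, Gsta3, Gsta4, Gstm5 and Gstp2 rose in both sexes. The sign of the difference was shared by males and females for 72.3% of members and 72.7% of all genes. The summed value of the members was 1304 to 1531 in p21 males, 1906 to 2952 in SW males and 2039 to 2284 in DW males. In females it was 1395 to 3174 at p21 and 1797 to 2345 in SW, which overlap, and the 3174 belongs to female 30. DW females had 1489 to 1922, which overlaps the other 3 p21 females (1395 to 1552).

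Of the 5 members that rose in both sexes, 4 were glutathione S-transferases. The 68 members hold 3 Gsta, 7 Gstm, 3 Gstp, 4 Gstt, 2 Gsto and 1 Gstk gene, and nothing about these classes is read from so few genes. Gsta3, an alpha class transferase known for conjugating the aflatoxin epoxide, had values of 26.2, 16.1, 17.8 and 18.2 in p21 males and 63.8, 58.5, 70.6 and 45.9 in SW males. Every SW male was above every p21 male. The difference was 1.57 ± 0.24 (SE) with an adjusted p of 2.77e-04. In females Gsta3 was 48.3, 20.1, 23.2 and 28.4 at p21 and 68.7, 60.7, 67.9 and 123 in SW. The groups again did not overlap, although the highest p21 animal was female 30. The female difference was 1.41 ± 0.24 with an adjusted p of 3.57e-04.

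Animals kept with the mother had intermediate Gsta3 values. DW males had 41.6, 39.5, 49.0 and 43.3, and DW females 47.8, 43.6, 77.5 and 58.9. Both DW groups were called above p21, by 1.13 in males (adjusted p = 0.00386) and 0.95 in females (adjusted p = 0.0121). The female call was lost without animals 82 and 83 (0.67, adjusted p = 0.150). DW lay below SW by a difference of -0.44 in males (95% interval -0.94 to 0.06) and -0.46 in females (-0.96 to 0.04), and neither was called. Gsta4, which conjugates the lipid peroxidation product 4-hydroxynonenal, rose from 13.5 ± 1.78 (SD, n = 4) to 19.8 ± 2.00 in males and from 13.6 ± 1.19 to 20.5 ± 1.95 in females. Its adjusted p was 0.0101 in males and 0.00486 in females. DW males had Gsta4 values of 13.5, 13.8, 15.2 and 15.8, below all SW males (17.9 to 22.6), but the DW minus SW difference of -0.41 was not called (adjusted p = 0.293). DW females had 15.2, 15.0, 22.6 and 20.0, which overlap SW females (17.7 to 22.1, difference -0.18, adjusted p = 0.433).

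Gstt2, a theta class transferase, rose in SW males by 1.16 ± 0.21 (adjusted p = 0.00124). It was 7.67, 10.1, 12.2 and 13.3 in p21 males and 26.6, 26.0, 24.4 and 22.7 in SW males, without overlap. In females its difference was 0.40 and not called (adjusted p = 0.248). Gstm5, a mu class transferase, rose in males by 0.41 (adjusted p = 0.00700), in females by 0.33 (adjusted p = 0.0261), and by 0.32 in DW animals of each sex. The SW males lay between 27.0 and 28.2 and the p21 males between 19.4 and 21.3. Gstp2 rose in both sexes, by 0.52 (males) and 0.58 (females), at a low level of 1.05 to 2.33 as group means. The abundant Gstm1 and Gstp1 were not called between SW and p21 in either sex. Members of the Gsta, Gstm and Gstp classes resemble their neighbours in sequence, and how reads that fit several genes were counted is not given in the sources used here, so single values in these classes are uncertain.

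The promoters of Gsta3 and Gstm5 are printed because both genes rose in both sexes and both windows hold the core of the antioxidant response element, TGACNNNGC, through which NRF2 acts. The RefSeq windows run from 250 bases before the annotated start to 50 bases after it, in build GRCm38.p6, and 56 of the 68 members matched an entry by symbol. Capitals mark TGACNNNGC on either strand and GCGTG, the core of the AHR element, on either strand (CACGC on the strand shown). Gsta3 lies at chr1:21240335-21240634, plus strand, with its match starting at -121 from the annotated start. Gstm5 lies at chr3:107895604-107895903, plus strand, where TGACCACGC at -42 joins both cores and a further CACGC starts at -171.
Gsta3: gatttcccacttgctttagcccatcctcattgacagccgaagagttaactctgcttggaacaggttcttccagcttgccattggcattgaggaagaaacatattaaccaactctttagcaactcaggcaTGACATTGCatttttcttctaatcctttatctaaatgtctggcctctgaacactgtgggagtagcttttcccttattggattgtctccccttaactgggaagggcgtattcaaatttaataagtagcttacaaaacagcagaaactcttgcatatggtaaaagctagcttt
Gstm5: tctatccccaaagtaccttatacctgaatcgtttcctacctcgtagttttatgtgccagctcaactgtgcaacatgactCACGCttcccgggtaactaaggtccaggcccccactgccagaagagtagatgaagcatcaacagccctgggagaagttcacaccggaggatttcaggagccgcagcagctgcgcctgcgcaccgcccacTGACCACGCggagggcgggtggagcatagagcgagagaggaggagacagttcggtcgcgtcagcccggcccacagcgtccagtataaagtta
TGACNNNGC was found in 7 of the 56 matched members (12.5%) and in 14.0% of all 27025 genes with a window. GCGTG was found in 19 of 56 (33.9%) and in 35.2% of all genes. A match describes letters only. NRF2 is encoded by Nfe2l2, whose transcript was lower in SW females by -0.47 (adjusted p = 0.0233) and did not pass in males (-0.18, adjusted p = 0.422). Of 15 NRF2 target genes outside the family list, 1 rose and 1 fell from p21 to SW in each sex. Of all genes, 6.90% rose and 4.97% fell in males, and 7.39% and 4.23% in females. As the mean of the sexes 4 of the 15 rose and 2 fell, where 25.8% of all genes were called. Hmox1, haem oxygenase 1, rose by 0.57 (males) and 0.62 (females). Txnrd1, thioredoxin reductase 1, fell by 0.52 and 0.45.

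Among the oxidising enzymes, Cyp2e1 rose in males. Its values were 386, 329, 159 and 263 in p21 males and 875, 1106, 888 and 547 in SW males. No SW male was as low as any p21 male, and the difference was 1.61 ± 0.42 (adjusted p = 0.0152). DW males were at 877, 803, 675 and 695, also above all p21 males (1.49, adjusted p = 0.0204). In p21 females Cyp2e1 was 1384 in female 30 and 294, 294 and 282 in the other 3. SW females had 409, 314, 451 and 653, so those other 3 lay below all SW females and female 30 above them. The female difference was 0.04 (95% interval -0.84 to 0.92) and was not called. Without female 30 it was 0.60 (adjusted p = 0.301). Whether the sexes differ in this change was tested as an interaction, which gave -1.57 with an adjusted p of 0.363, and -1.01 without female 30 (adjusted p = 0.588). The SW male call was lost without the p21 male 53 and SW male 84 (1.22, adjusted p = 0.132), the libraries with the fewest reads. It was also lost without male 53 alone and with marker covariates (adjusted p up to 0.169 over all 16 alternatives). The DW male call was lost in 4 of 16 alternatives (adjusted p up to 0.256). These were without male 53, without 53 and 84, without DW male 79 and with marker covariates.

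The fatty acid and eicosanoid hydroxylases of the Cyp4 family rose in part. Cyp4f17 rose by 1.05 ± 0.20 in males (10.8 ± 3.08 to 24.1 ± 8.51, adjusted p = 0.00207) and 0.64 in females (10.4 ± 1.66 to 17.0 ± 4.05, adjusted p = 0.0421). Its lowest SW male, 124 at 14.9, was just below the highest p21 male, 53 at 15.2. The female call was lost in 6 of 15 alternatives, namely with marker covariates and without any 1 of p21 females 30, 55 and 56 and SW females 74 and 81, with differences of 0.52 to 0.74 over all 15. Cyp4v3, a fatty acid omega-hydroxylase, rose by 0.74 in SW males (adjusted p = 0.0128) and stood at 0.52 in SW females (adjusted p = 0.0746). Cyp4b1 rose by 0.50 in SW males (adjusted p = 0.0476) and 0.71 in DW males (adjusted p = 0.00666), and was not called in females. Cyp2d22, a Cyp2d enzyme, rose by 0.55 in SW males (adjusted p = 0.0221). DW males had 32.2, 38.9, 37.7 and 33.4, also above all p21 males (23.7 to 30.2), but were not called (0.42, adjusted p = 0.0678). Cyp2u1, which hydroxylates long-chain fatty acids, was lower in DW than in p21 males by -0.74 (adjusted p = 0.0170).

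Ephx2 values were 143, 153, 144 and 151 in p21 males and 281, 291, 307 and 177 in SW males. All SW males were above the narrow p21 range, with male 124 well below the other 3. The difference was 0.80 ± 0.16 (adjusted p = 0.00280). In SW females it was 0.23 and not called. Fmo5, a flavin monooxygenase, rose from 13.4 ± 1.06 to 24.5 ± 2.56 in SW males (0.82, adjusted p = 7.35e-04) and to 23.7 ± 3.25 in DW males (0.77, adjusted p = 0.00126). In females the Fmo5 differences were 0.28 and 0.15, neither called. Nqo2, a quinone reductase, was the only member called lower in SW than in p21 males, falling from 40.7 ± 4.32 to 30.1 ± 3.76 (-0.43, adjusted p = 0.0367).

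Lower members in females were Cyp2b10 and Ugt8a. Cyp2b10, a target of the receptor CAR, was 1.78, 0.545, 5.38 and 1.34 in p21 females and 0.390, 0.392, 0.293 and 0.622 in SW females. The groups overlap at this low level, and the high value belongs to female 55. The 95% interval of the difference was -1.57 to -0.43 (adjusted p = 0.0175). Without female 55 the difference was -0.60 and not called (adjusted p = 0.0587). In males Cyp2b10 was 1.17 to 2.10 at p21 and 0.206 to 1.09 in SW, without overlap, and was not called (-0.68, adjusted p = 0.107). As the mean of the sexes it was called lower (-0.84, adjusted p = 0.00286), also in 23 of 24 alternatives, the exception being marker covariates. Ugt8a makes the myelin lipid galactosylceramide. It fell from 6.85 ± 0.97 to 3.30 ± 0.52 in SW females (-0.87, adjusted p = 0.0407). As the mean of the sexes it was also called lower, and this call was kept in all 24 alternatives (differences of -0.89 to -0.49). In those females the Schwann cell markers Mbp (-0.57, adjusted p = 0.0442) and Pmp22 (-0.53, adjusted p = 0.00427) were also called lower. Their part in the Ugt8a result was not tested.

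**Figure D2:**
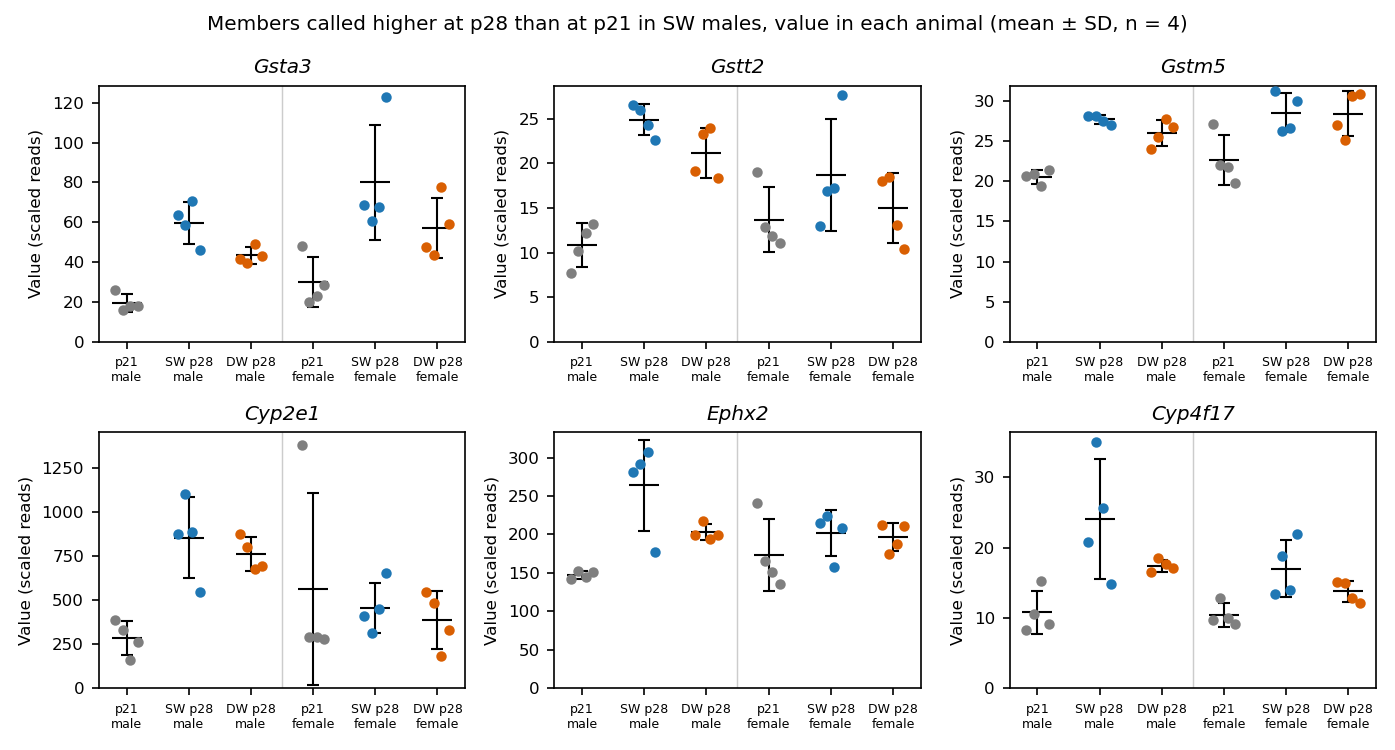
Values of 6 members in each of the 24 animals, in scaled reads, with bars for the mean ± SD of 4 animals. The mean of Gsta3 is lowest at p21 and highest in SW in both sexes, and for Cyp2e1 female 30 stands at 1384 above the other p21 females.

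Beside these counts stand the tissue markers. With the muscle, mammary and lymph node marker scores as covariates, the male count for SW against p21 went from 17 to 3, and 3.05% of all genes were called in that fit. The 3 were Fmo5, Gsta3 and Gstt2. In females 9 became 3, namely Cyp3a57, Cyp4f15 and Gsta3, with 400 of 16005 genes called. Several differences kept most of their size while losing the call, among them Cyp4f17 in males (0.96, adjusted p = 0.0527), Cyp4v3 in males (0.73, adjusted p = 0.0914) and Gsta4 in females (0.62, adjusted p = 0.102). The adipocyte score was not among the covariates. Without animals 53 and 84 the male count was 7, with 6.43% of all genes called. Over all 16 alternatives tried in males, Fmo5, Gsta3 and Gstt2 kept their SW call, Cyp4b1 lost it in 10, Nqo2 in 7 and Cyp2d22 in 6. Over those tried in females, Cyp4f15 and Gsta3 kept it, and Gstm5 and Ugt8a each lost it in 8 of 15.

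In DW animals compared with p21, 13 members were called in males, where 15.0% of all genes were. Of these, 12 were higher and 1 lower, beside 8.86% and 6.10% of all genes. In females 12 were called, where 12.1% of all genes were, 9 higher and 3 lower, beside 5.95% and 6.16% of all genes. Both DW and SW comparisons share the p21 animals. Cyp4v3, Gsta3, Gstm5 and Gstp2 rose in DW animals of both sexes. In females Gstp2 kept this call in all 16 alternatives, while Cyp4v3 (0.56, adjusted p = 0.0496) kept it in 4. Without females 82 and 83, Cyp4v3 (0.71, adjusted p = 0.0554), Gsta3 and Gstm5 (0.20, adjusted p = 0.264) were not called. Cyp1b1, which metabolises oestrogens and polycyclic hydrocarbons and is an AHR target, rose in DW males by 0.72 (adjusted p = 0.0110), from 11.1 to 14.1 at p21 to 17.6 to 24.4. Without females 82 and 83 the female count was 4, where 8.64% of all genes were called. With the marker scores as covariates limma called no member in DW males, where 3.79% of all genes were called and 11 members and 19.9% of all genes had an unadjusted p under 0.05.

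**Figure D3:**
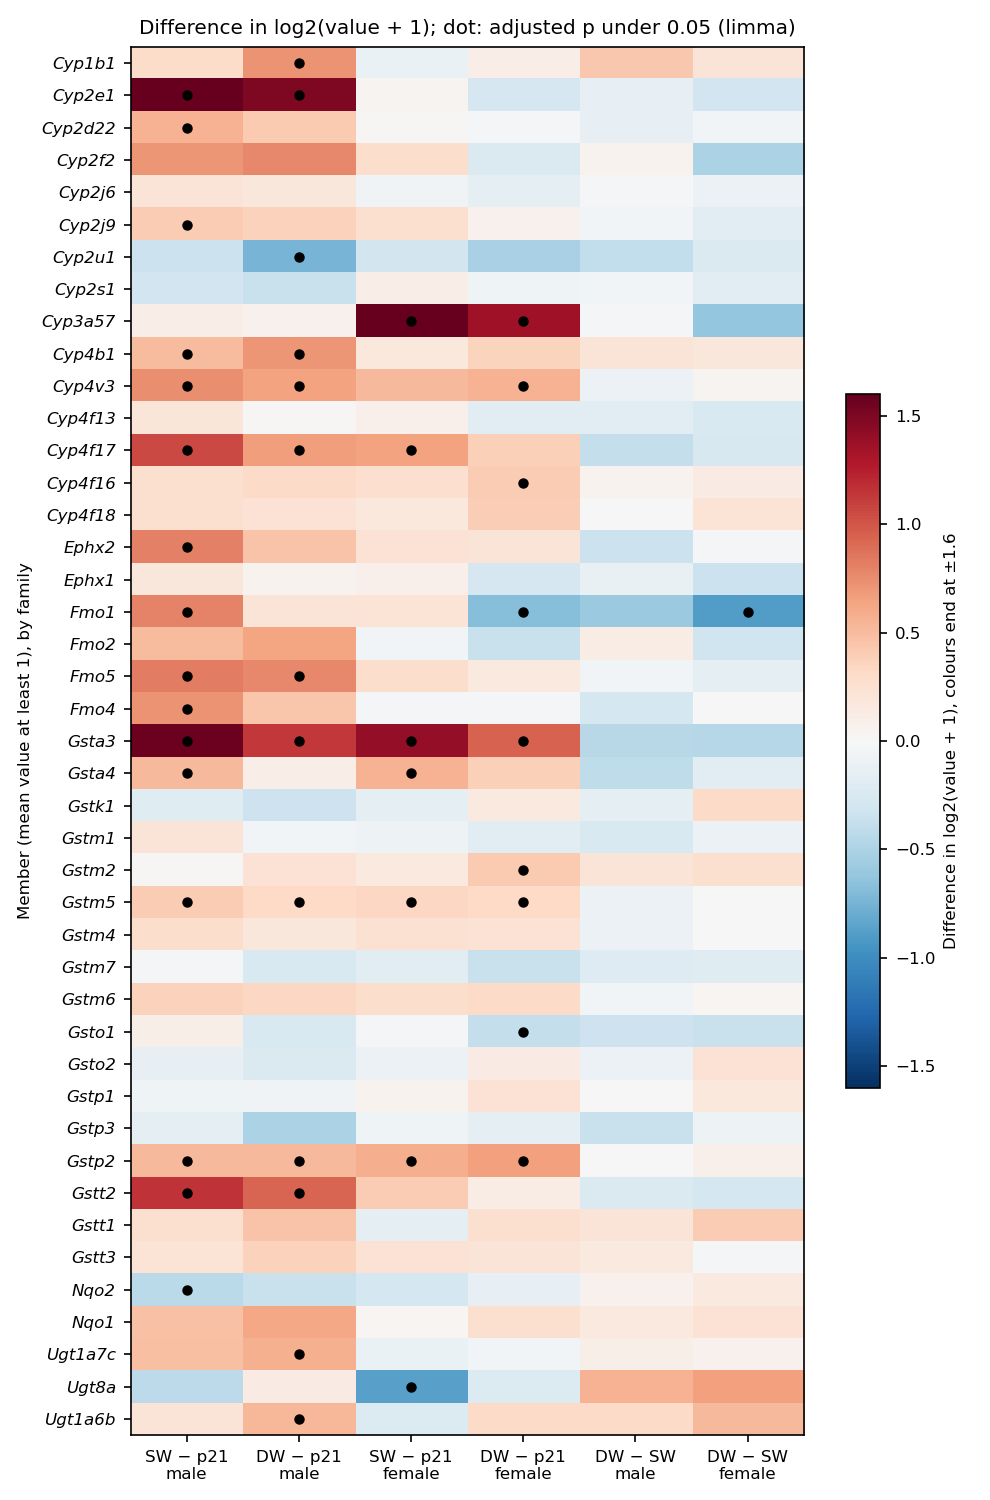
Difference in log2(value + 1) for the 43 members with a mean value of at least 1, in the 4 age and 2 weaning comparisons within a sex. Black dots mark an adjusted p under 0.05 and lie mostly in the male age columns, and the only dot in the weaning columns is Fmo1 in females.

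The direct comparison of DW with SW at p28 asks whether staying with the mother alters these enzymes at the same age. No member was called in males, where 0.256% of all genes were called with limma. At an unadjusted p under 0.05 there were 8 male members of 65, beside 6.94% of all genes, and edgeR and DESeq2 also called 0. In females 2 members were called lower, Fmo1 and Cyp4f15, where 1.27% of all genes were called and 0.812% were lower. As the mean of both sexes 5 were called, where 2.21% of all genes were called. Ugt1a6b and Gstm2 were higher in DW, and Fmo1, Gsto1 and Cyp4f15 lower. The groups did not overlap for 6 members in each sex, beside 8.73% of all genes in males and 5.79% in females.

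Fmo1, which oxygenates nitrogen and sulphur atoms in drugs and amines, was the most abundant flavin monooxygenase. Its values were 435, 515, 444 and 332 in SW males and 297, 289, 255 and 294 in DW males. In females they were 340, 385, 282 and 392 in SW and 242, 242, 145 and 138 in DW. All DW animals lay below all SW animals of their sex. The DW minus SW difference was -0.75 ± 0.15 as the mean of the sexes (adjusted p = 0.00519), -0.90 in females (adjusted p = 0.0307) and -0.59 in males, where it was not called (adjusted p = 0.426). The sexes were not shown to differ in this (interaction -0.32, adjusted p = 0.813). At p21 Fmo1 was 243 to 249 in males, just below all DW males (difference 0.20, not called), and 231 to 491 in females. SW males were called above p21 (0.79, adjusted p = 0.0153) and DW females below p21 (-0.68, adjusted p = 0.0318). That female call was lost without female 30 (-0.44, adjusted p = 0.128), without 82 (-0.57), without 83 (-0.54) and without both (-0.30, adjusted p = 0.450), and in a fit of the compared groups alone (adjusted p = 0.210).

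DW females 82 and 83 carried the lowest Fmo1 values. Their macrophage marker scores were 5.86 and 5.81 against 6.49 and 6.58 in females 76 and 77, and their adipocyte scores 9.54 and 9.32 against 9.77 and 9.69. Their Alb values were 59.6 and 53.4 against 34.9 and 35.4. Genes within a list went different ways in females 82 and 83. Of the macrophage markers, C1qa was 40.1 and 30.5 against 130 and 135, but Lyz2 was 412 and 477 against 402 and 372. Of the adipocyte markers, Cfd was 996 and 612 against 2609 and 2077, but Retn was 1821 and 1511 against 978 and 753. The scores are therefore not read as cell content. The part of these marker differences in the Fmo1 result was not tested. Without both animals the mean of the sexes was -0.55 with an adjusted p of 0.0530, and the female difference -0.52 with an adjusted p of 0.797. In each of the 24 other alternatives tried, the mean of the sexes stayed called. The female DW minus SW call was lost in 10 of 16 alternatives, with differences of -1.03 to -0.52 over all 16. Among these 10 were edgeR, marker covariates and leaving out any 1 of SW females 73, 74 and 81 and DW females 82 and 83.

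Gsto1, an omega class transferase that reduces methylated arsenic, was 58.5, 58.6, 56.4 and 42.3 in SW males and 41.2, 45.5, 43.2 and 40.0 in DW males. In females it was 50.8, 54.8, 53.2 and 54.1 in SW and 44.2, 41.8, 42.4 and 36.8 in DW. The female groups do not overlap, and in males only SW male 124 lay among the DW values. The mean difference was -0.34 ± 0.08 (adjusted p = 0.0187). It was lost in 2 of 25 alternatives, with marker scores as covariates and without females 82 and 83.

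Ugt1a6b, a glucuronosyltransferase of planar phenols, was 2.81, 4.41, 4.16 and 4.48 in SW males and 4.50, 4.66, 5.08 and 6.36 in DW males. In females it was 2.97, 3.96, 3.47 and 4.19 in SW and 5.46, 4.81, 5.63 and 6.75 in DW. Neither sex overlaps, although the highest SW and lowest DW male differ by little. The mean difference was 0.42 ± 0.11 (adjusted p = 0.0472) and was lost in 17 of 25 alternatives. Ugt1a genes share their last exons, so reads cannot be assigned to 1 of them with certainty. Gstm2 was higher by 0.24 ± 0.06 (adjusted p = 0.0457), with means of 88.3 in SW and 102 in DW males and of 92.5 and 112 in females, and was lost in 19 of 25.

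Ugt8a was 3.36 ± 1.04 in SW and 5.37 ± 1.21 in DW males, and 3.30 ± 0.52 in SW and 5.89 ± 1.81 in DW females. The differences of 0.56 and 0.65 were not called (adjusted p = 0.729 and 0.220). Nor was Nqo1, the NRF2 target that reduces quinones, whose DW males nonetheless did not overlap SW males (0.15). No member passed the test of a sex difference in the weaning effect, where 0.0187% of all genes did with limma. At an unadjusted p under 0.05, 2 of 65 members passed, beside 5.09% of all genes, and edgeR and DESeq2 called 0.

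**Figure D4:**
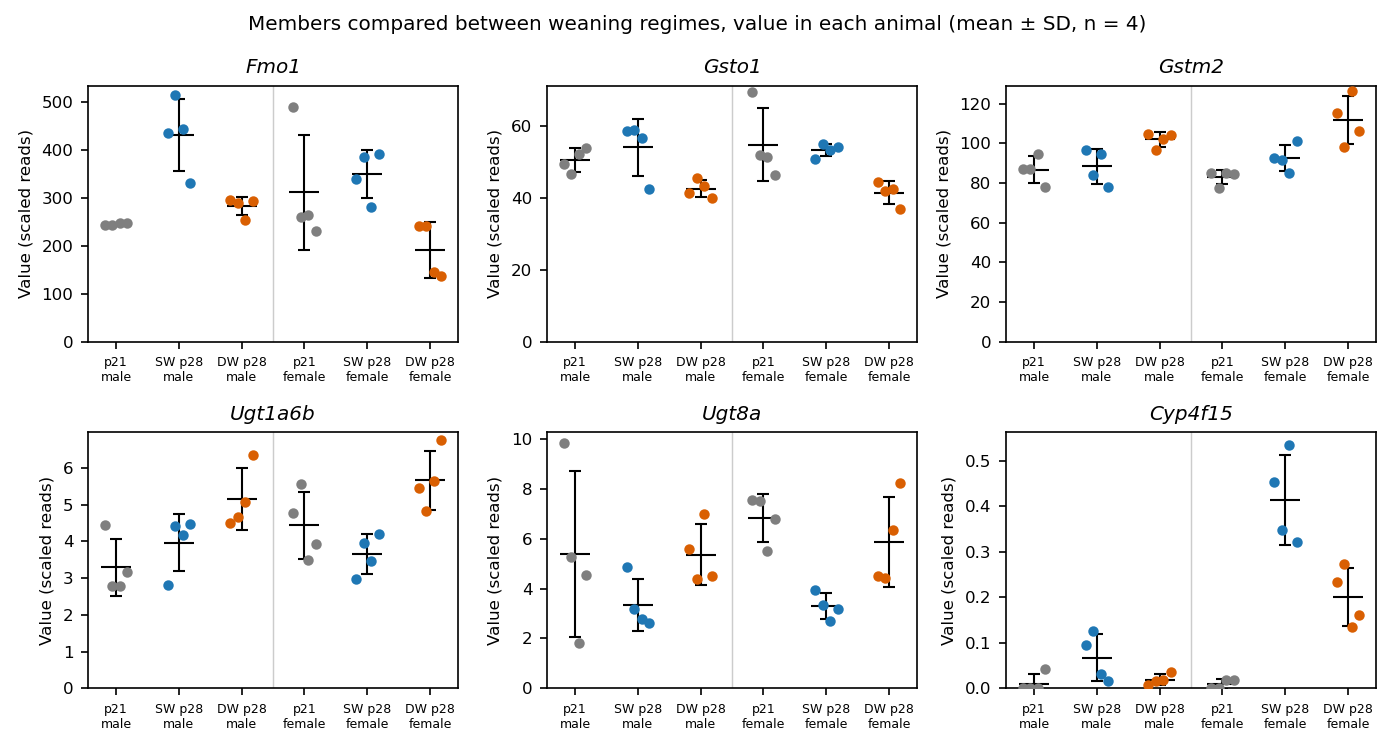
Values of 6 members in each animal, in scaled reads, with bars for the mean ± SD of 4 animals. DW animals lie below SW animals of the same sex for Fmo1 and above them for Ugt1a6b, while Cyp4f15 stays under 1.

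The AHR targets of the Cyp1 family were not called between DW and SW. Cyp1a1 differed by -0.05 in males (95% interval -0.47 to 0.37) and -0.09 in females (-0.52 to 0.33). Cyp1b1 differed by 0.43 in males (adjusted p = 0.619) and 0.21 in females (adjusted p = 0.512). Ahr itself differed by -0.11 and 0.00. The promoter windows of both Cyp1 genes are shown because each holds 1 AHR core. Cyp1a1 lies at chr9:57697363-57697662, plus strand, with GCGTG at -54. Cyp1b1 lies at chr17:79715012-79715311, minus strand, with CACGC at -76.
Cyp1a1: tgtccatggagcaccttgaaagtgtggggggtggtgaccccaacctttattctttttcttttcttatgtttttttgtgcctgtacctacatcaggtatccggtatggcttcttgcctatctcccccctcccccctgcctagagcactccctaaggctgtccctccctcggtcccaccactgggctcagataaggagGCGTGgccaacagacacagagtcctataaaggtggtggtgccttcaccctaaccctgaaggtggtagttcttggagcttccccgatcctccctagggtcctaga
Cyp1b1: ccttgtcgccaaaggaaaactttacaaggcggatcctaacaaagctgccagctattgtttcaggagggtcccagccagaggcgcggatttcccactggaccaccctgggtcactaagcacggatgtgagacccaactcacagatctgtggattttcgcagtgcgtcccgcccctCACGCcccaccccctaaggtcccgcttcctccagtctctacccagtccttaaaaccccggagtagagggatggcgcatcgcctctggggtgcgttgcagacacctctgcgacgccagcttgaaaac

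Cyp3a57 and Cyp4f15 differed by sex. Cyp3a57, of the steroid and drug oxidising Cyp3a family, was 7.43, 4.87, 7.67 and 3.75 in SW females, 3.54, 4.13, 2.23 and 3.80 in DW females and 0.712, 0.752, 0.463 and 0.944 in p21 females. In the 12 males it ranged from 0 to 0.363, that is 0 to 38 reads per library. Every female exceeded every male, and all p28 females exceeded all p21 females. The female minus male difference was 0.76 at p21 (adjusted p = 0.0428), where 0.356% of all genes were called and it was the only member. It was 2.63 in SW (adjusted p = 2.67e-10) and 2.03 in DW (adjusted p = 5.56e-08), with 2 members called in each, where 3.54% and 2.46% of all genes were called.

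Cyp3a57 rose from p21 in SW females by 1.97 (adjusted p = 6.43e-08) and in DW females by 1.35 (adjusted p = 4.71e-05). The SW female call was lost with DESeq2 (adjusted p = 0.125). The DW female call was lost with edgeR and with DESeq2 (adjusted p up to 0.255). The change with age differed between the sexes by 1.87 (adjusted p = 1.01e-04), and that of Cyp4f15 by 0.41 (adjusted p = 0.00428), the 2 members called where 1.03% of all genes were. Count models, which compare ratios of reads near 0 in males, did not call either interaction. For Cyp3a57 the interaction was 1.05 with edgeR and 0.11 with DESeq2 (both adjusted p = 1.00), and 2.37 with 0.1 in place of 1 added to the values (adjusted p = 0.111). For Cyp4f15 it was 2.48 with edgeR (adjusted p = 0.761) and 2.85 with DESeq2 (adjusted p = 0.597). Cyp4f15, a fatty acid hydroxylase, was 0.321 to 0.535 in SW females, 0.134 to 0.272 in DW females and 0 to 0.126 in all other animals. These are 33 to 73 reads in SW females and 17 to 36 in DW females. Its DW minus SW difference in females was -0.24 (adjusted p = 0.0259). The call was lost in 9 of 14 alternatives, with adjusted p from 0.0125 to 0.630 over all of them. The difference was -0.96 with edgeR and -0.78 with 0.1 added to the values, since adding 1 understates the change of low genes.

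Mammary epithelium markers were also higher in females. In p21, SW and DW males, the animal with most Cyp3a57 (54, 78 and 86) was also the one with the highest mammary marker score (1.58, 2.05 and 1.09). For Cyp4f15 the order among males rests on few reads. SW male 84 had the highest value (0.126, 9 reads) and the lowest score of its group (0.24), while male 78 had 10 reads. At p21 only male 54 had reads of it (5). DW males had 1 to 4 reads, with the most in male 87 and not in 86. SW females did not follow the order of the mammary score. Among them animal 81 had the highest score (4.63) and the least Cyp3a57 (3.75) and Cyp4f15 (0.321). All 10 mammary markers were called higher in SW females than in SW males. With mammary, muscle and lymph node scores as covariates, the SW female minus male difference of Cyp3a57 was 1.88 (adjusted p = 0.0257), that of Cyp4f15 0.25 (adjusted p = 0.778), and the p21 difference of Cyp3a57 0.39 (adjusted p = 1.00). Cyp3a57 and Cyp4f15 belong to clusters of similar genes, so the assignment of their reads is uncertain.

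**Figure D5:**
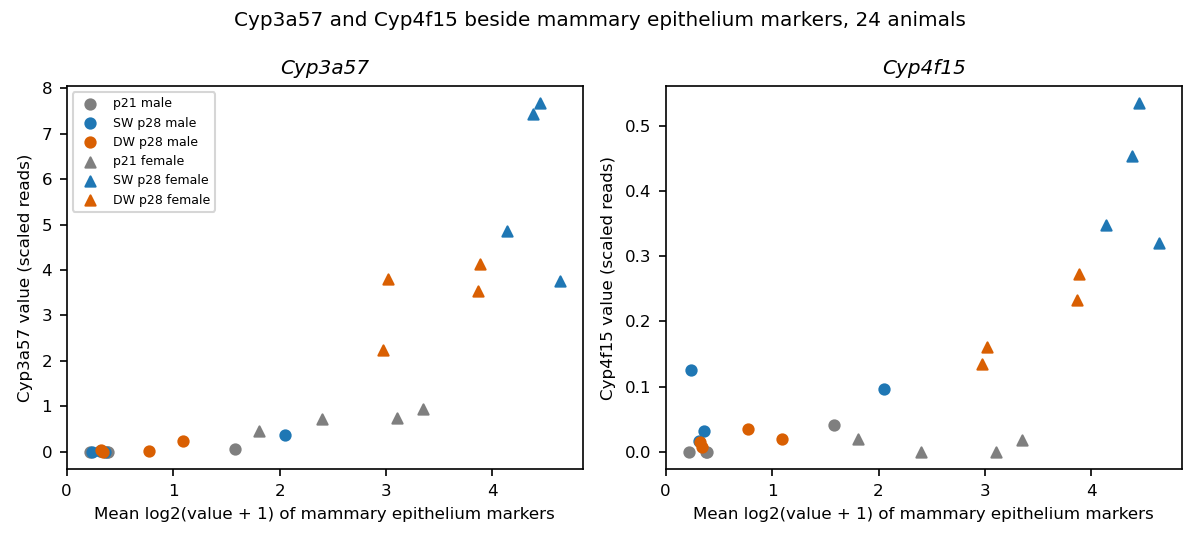
Value of Cyp3a57 and of Cyp4f15 in each animal against the mean log2(value + 1) of 10 mammary epithelium markers. SW females lie at the upper right with Cyp3a57 values of 3.75 to 7.67, and males lie at the lower left.

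Few genes that work with these enzymes were called between DW and SW. Of 9 tested sensors and regulators, including Ahr and Nfe2l2, none was called between DW and SW with limma. At an unadjusted p under 0.05, 0 passed in males and 1 in females, beside 6.94% and 18.9% of all genes. SW against p21 gave Nfe2l2 and Ppara lower in females, where 4.23% of all genes were lower. There was no call in males, where 1 passed unadjusted, beside 27.0% of all genes. Of 22 tested other oxidising, reducing and hydrolysing enzymes, 6 rose and 1 fell in SW males and 1 rose in SW females, beside 6.90% of all genes higher in males and 7.39% in females, and none was called between DW and SW within a sex (2 in males and 4 in females unadjusted). Aox1, aldehyde oxidase 1, rose by 0.94 in males (adjusted p = 3.86e-04) and 0.50 in females (adjusted p = 0.0295). Pon1, a paraoxonase, fell in males (-0.83, adjusted p = 0.0278). Of 13 transporters, 4 rose in SW males and 3 in SW females, beside 6.90% and 7.39% of all genes. Among them was the efflux pump Abcb1a in both sexes, and none fell. These counts are small, and nothing particular to the lists is read from them.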

How the data were processed

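Poly(A) RNA of 24 libraries was counted per gene. Reads were processed with fastp, HISAT2, featureCounts and DESeq2 1.38.3 against mm10, per the submitters' processing notes. The authors deposited a signal, reads multiplied by 1 factor per library, and all values (100%) were whole multiples of the smallest within 0.001, so whole reads were recovered. After 90 repeated rows were left out, 16118 genes remained. Gene starts in the table equal those of GRCm38.p6 in 0.63% of genes, so no coordinate of the table was combined with promoters. The 30 deposited comparison columns were not used here. Titles of the p21 libraries name another age than their descriptions, which were followed.

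limma 3.58.1 was fitted on log2(value + 1) with 6 group means and 18 residual degrees of freedom, since the table held normalized values where raw counts had been allowed for. edgeR 4.0.16 and DESeq2 1.42.0 (R 4.3.3) were alternatives on recovered reads. The scripts were tested on simulated data. Replicate pairs (36) differed by at least 75.4 times sampling noise as chi-square per degree of freedom, so none was merged. The largest values, 587 to 779, were between DW females 76 or 77 and 82 or 83, and all others were at most 357. Members and lists were chosen with earlier results of these data known. Named were members called in a weaning or interaction test, up to 8 per direction and comparison by size, and the 3 highest of each family. Exon lengths are from GENCODE M21 and promoters from RefSeq. Some genes of the lists are not reported here.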

Additional observations from a re-analysis of the deposited data

Results flagged for a closer look

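Of 213 groups of 4 animals tested for the 36 named members, 12 held an animal far from the other 3 on the scale log2(value + 1), where chance gives about 1 in 20 (10.7). Female 30 had a Cyp2e1 of 10.44, the other p21 females 8.14 to 8.21. Cyp3a57 stood highest among males in animal 54 at p21 (0.07), animal 78 of SW (0.45) and animal 86 of DW (0.31), the others being at 0.04 or less, and Cyp4f15 was 0.06 in male 54. SW male 124 was low for Ephx2 (7.48, the others 8.14 to 8.27) and Gsto1 (5.44, the others 5.84 to 5.90). DW male 86 was low for Fmo1 (8.00) and SW male 78 for Ugt1a6b (1.93). P21 female 36 was low for Gstm2 (6.30). DW female 82 was high for Gstp1 (5.95, the others 4.97 to 5.13) and Gstp2 (2.10, the others 1.58 to 1.61).

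The change with age differed between the sexes by test for Cyp3a57 (1.87) and Cyp4f15 (0.41), both higher in females. Count models called neither, and the interaction of Cyp3a57 was 0.11 with DESeq2 and 1.05 with edgeR (adjusted p = 1.00 in both).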

How the results depend on the processing

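Over 80 single calls and 1466 alternatives, 1156 kept direction and call, 310 kept direction but lost the call and 0 reversed. Counts of called members follow, and the cause of each shift was not tested.

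For DW minus SW in females (2), edgeR, a pseudocount of 0.1, fitting only the compared groups, marker covariates and leaving out females 82 and 83 gave 0, and a value of at least 1 in 4 samples gave 1. For the mean of the sexes (5), edgeR and a pseudocount of 0.1 gave 2, the value filter 3, and covariates and leaving out 82 and 83 gave 1. For SW minus p21, only the compared groups gave 10 in males, covariates gave 3 in each sex and 6 for the mean of the sexes (22), and leaving out 53 and 84 gave 7 in males. For DW minus p21 in males (13), DESeq2 gave 22, covariates 0 and leaving out 53 and 84 gave 7, and in females (12) only the compared groups gave 2 and leaving out 82 and 83 gave 4. For female minus male at p21 (1), edgeR, the value filter, only the compared groups, covariates and leaving out 53 and 84 gave 0. In SW (2), edgeR, the value filter and covariates gave 1. In DW (2), the value filter and only the compared groups gave 1 and covariates 0. For the change with age between sexes (2), edgeR and DESeq2 gave 0, and a pseudocount of 0.1, the value filter and covariates gave 1.

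Leaving out 1 animal at a time gave 0 to 6 for DW minus SW in females (0 without SW female 73, DW female 82 or 83, and 6 without 76), 2 to 5 for the mean of the sexes, 11 to 16 and 6 to 8 for SW minus p21 in males and females, 18 to 26 for their mean, 7 to 14 and 5 to 13 for DW minus p21 in males and females, 0 to 1 for female minus male at p21, and 2 to 5 in SW and in DW. Leave-one-out fits kept 0 for DW minus SW in males and for the sex difference in weaning, and 2 for the sex difference with age.

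No paired analysis was possible because animal numbers are not shared between groups. The animal that gave the lowest count was male 84 for SW minus p21 in males (11), male 53 or 87 for DW minus p21 in males (7) and female 83 for DW minus p21 in females (5). The leave-out of females 82 and 83 was chosen after seeing the data. Values of members under 1 rest on few reads, and 4 animals a group limit the precision.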

Other observations

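Signs of the DW minus SW difference were shared by males and females, which have no animal in common, for 48 of 65 members (73.8%) and for 60.1% of all tested genes. No member was called in both sexes. Members are not independent of each other, and no test was made of this share.

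Members that lay near the threshold for the mean of the sexes in DW minus SW were Gsta4 (-0.30, adjusted p = 0.0878), Ugt8a (0.61, adjusted p = 0.108) and Cyp3a57 (-0.33, adjusted p = 0.153), named after their values were seen.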
